A study of Mus musculus with 4 samples.

Results

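The 34 genes described here encode factors that build ribosomes or run protein synthesis, together with Myc, a transcription factor that drives many of them. They were taken by symbol from a fixed list, and all 34 were present among the 32286 features of the count matrices. The list was chosen with earlier results of these data known. Counts of its genes set beside all genes are therefore a description and no independent support. Their roles, assigned from general knowledge, were nucleolar chaperones (3 genes), box C/D small nucleolar ribonucleoproteins or snoRNPs (3), box H/ACA snoRNPs (4), large subunit assembly (6), RNA polymerase I and ribosomal DNA (4), initiation (7) and elongation (6), with Myc as the remaining gene. The samples were 4 pools of sorted brain cells from mice of genotype Tmem119-2A-CreERT2;Ai6, in which a tamoxifen-inducible Cre made from the Tmem119 locus turns on the green reporter ZsGreen. Each combination of sex (female or male) and surgery (sham or stroke) gave 1 pool of 4 mice, so no group had a replicate and the variation between mice is unknown. Stroke was pMCAO, a lasting ligation of the right middle cerebral artery, sham animals had the surgery without the ligation, and the hemisphere of that side was taken on day 3. All 4 pools carry the Cre and the reporter, and the sources used here do not give the age of the animals. The sort on ZsGreen does not make the cells pure microglia, and cells of other classes are named below.

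Ribosomes are made in the nucleolus, where RNA polymerase I transcribes ribosomal DNA, snoRNPs guide the chemical modification of the transcript, and assembly factors fold it onto ribosomal proteins. In the cytoplasm, initiation factors bring the small subunit to the messenger RNA and elongation factors carry in aminoacyl-tRNA and move the ribosome along. Growing and dividing cells raise this machinery, and Myc is known for binding E-boxes, of which CACGTG is the canonical form, in the promoters of many of its genes. Resting microglia divide rarely, and they proliferate after brain injury.

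The stretches of promoter sequence below are shown because the Myc motif is the regulatory sequence most tied to this gene set. They come from RefSeq on build GRCm38.p6. Each is 100 bases, written 5′ to 3′ on the gene's strand, with CACGTG in capitals, and positions count back from the annotated start. Eef2, Eif4a1 and Eif5a hold the motif, and Nop56, Nop58 and Ncl do not.
Eef2, chr10:81176531-81176630, plus strand: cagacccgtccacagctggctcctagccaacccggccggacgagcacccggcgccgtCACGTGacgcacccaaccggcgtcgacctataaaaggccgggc
Eif4a1, chr11:69672554-69672653, minus strand: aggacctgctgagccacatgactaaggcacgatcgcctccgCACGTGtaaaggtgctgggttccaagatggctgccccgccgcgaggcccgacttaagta
Eif5a, chr11:69921387-69921486, minus strand: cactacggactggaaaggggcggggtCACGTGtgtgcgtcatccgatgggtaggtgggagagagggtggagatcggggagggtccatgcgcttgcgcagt
Nop56, chr2:130274312-130274411, plus strand: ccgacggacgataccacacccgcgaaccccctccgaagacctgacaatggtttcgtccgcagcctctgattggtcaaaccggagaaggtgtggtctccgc
Nop58, chr1:59684906-59685005, plus strand: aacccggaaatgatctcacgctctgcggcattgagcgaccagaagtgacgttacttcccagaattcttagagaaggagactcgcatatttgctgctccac
Ncl, chr1:86359456-86359555, minus strand: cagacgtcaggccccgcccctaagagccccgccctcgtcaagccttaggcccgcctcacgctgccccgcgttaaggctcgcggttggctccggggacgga

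The motif begins at position -43 in Eef2, at -189 in Eif4a1 and at -74 from the Eif5a start shown, which is 1 of 6 annotated starts of that gene. The RefSeq table held 34 promoters of 26 of the genes. Myc, Npm1, Fbl, Rrs1, Bop1, Eif4ebp1, Eef1d and Eef1g were not in it. Over each whole window of that table, most of it before the start, CACGTG, which reads the same on both strands, was found in 8 of the 34 promoters (23.5%), belonging to 6 genes: Mybbp1a, Pes1, Eif4a1, Eif4e, Eif5a and Eef2. The share among all 32851 promoters of that table was 7.15%. Overlapping windows of Eif5a hold the same motif, which is counted in each of them. By gene, 6 of 26 held it, against 2187 of all 27025. The motif CCGGAAG, a core that factors of the ETS family bind, searched on both strands and not overlapping CACGTG in its letters, was in 20.6% of the member promoters and 8.86% of all. TATAAA, the TATA box core, also searched on both strands, was in 14.7% and 13.6%. These are matches of letters, and no binding was measured in this series. All promoters were not matched to the member promoters in base composition or expression. The part of this in the shares was not tested.

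In build mm10, Eef1g (ENSMUSG00000071644) lies on the plus strand of chromosome 19 from 8967041 to 8978479, and Eef2 (ENSMUSG00000034994) on the plus strand of chromosome 10 from 81176631 to 81182498. Nop56 (ENSMUSG00000027405) spans 130274430 to 130279313 on the plus strand of chromosome 2, and GENCODE M21 places 5 snoRNA genes within that span. Nop58 (ENSMUSG00000026020), from 59684971 to 59719044 on chromosome 1, holds 4 such genes, Ncl (ENSMUSG00000026234), from 86344719 to 86359400 on the same chromosome, holds 3, and Eif4a1 (ENSMUSG00000059796), from 69666936 to 69672423 on chromosome 11, also holds 3. Myc (ENSMUSG00000022346) is at 61985391 to 61990374 on chromosome 15. Nop56, Nhp2, Dkc1, Bop1, Pes1, Eef1b2, Polr1a, Mybbp1a, Wdr12 and Eif2s2 overlap a gene of the opposite strand in that annotation, and the sources used here do not say whether the counting used strand. Eef1a1 and Npm1 have processed pseudogenes, as background, and how reads that match several places were counted is not given either.

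The pools held between 29581392 and 66072270 unique molecular identifiers (UMIs), each UMI standing for 1 captured RNA molecule. Barcodes of the male sham pool began at 4198 UMIs and those of the others at 500 or 501, and each pool shared between 17 and 25 barcodes with another. After quality control the pools had 3168, 3499, 4010 and 3277 microglia-like cells, and 5, 1059, 19 and 561 monocyte-derived macrophage-like cells. The order in every list of 4 values is females with sham and then stroke, followed by males with sham and then stroke. Levels are UMIs of a gene per 10,000 UMIs of the same cells, which covers counting error only. All 12 microglia markers, P2ry12 and Tmem119 among them, were detected in the non-cycling microglia-like cells of every pool, summing to 313, 213, 297 and 218 per 10,000. A cell was called cycling when it held at least 3 UMIs of S, G2 and M phase genes, none of them among the 34, after each cell had been thinned to 3000 UMIs. Cycling cells were 7.23%, 39.3%, 7.81% and 35.2% of the microglia-like cells with at least 3000 UMIs. Of those cells 345, 331, 514 and 322 lay just below that limit at 2 UMIs, and 109, 178, 153 and 165 at 3.

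The first question was whether stroke changes the machinery in microglia that do not divide. In non-cycling microglia-like cells, all 6 elongation genes rose, while of the nucleolar genes 6 rose (Npm1, Ncl, Nhp2, Polr1c, Bop1 and Pes1) and 4 fell (Nop56, Nop58, Dkc1 and Rrs1). By the quasi-likelihood test of edgeR, 16 of the 34 genes rose and 4 fell on the summed counts of the 4 pools, with sex as a covariate and Benjamini-Hochberg adjustment at 0.05. Of all 13241 genes tested, 20.1% rose and 18.2% fell, beside 47.1% and 11.8% of the 34 genes. The number of falls is near or below the share over all genes. It is therefore no result about the set or its nucleolar genes. The median log2 change was 0.23 over the 34 genes and -0.04 over all genes tested. This test has 1 residual degree of freedom, the difference between the sexes in their response. Its p-values and the SE after ± therefore do not measure the spread between mice. The prior degrees of freedom of the fit were infinite, so each gene's variance was taken from a trend over all genes. A gene's own difference between the sexes thus had no weight in its p-value or SE. The direction also depends on the scale: with plain library totals in place of TMM scaling the median of all genes moved to -0.35, and 6 of the 34 genes rose while 10 fell. Over all genes, rises were 52.5% of the calls with TMM scaling and 20.1% with library totals. With library totals 10.5% of all genes rose and 41.8% fell. Leaving out the female stroke or the male stroke pool left 7 rises and 0 falls in each case, leaving out the female sham pool gave 16 and 7, and leaving out the male sham pool gave 20 and 2.

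**Figure D1:**
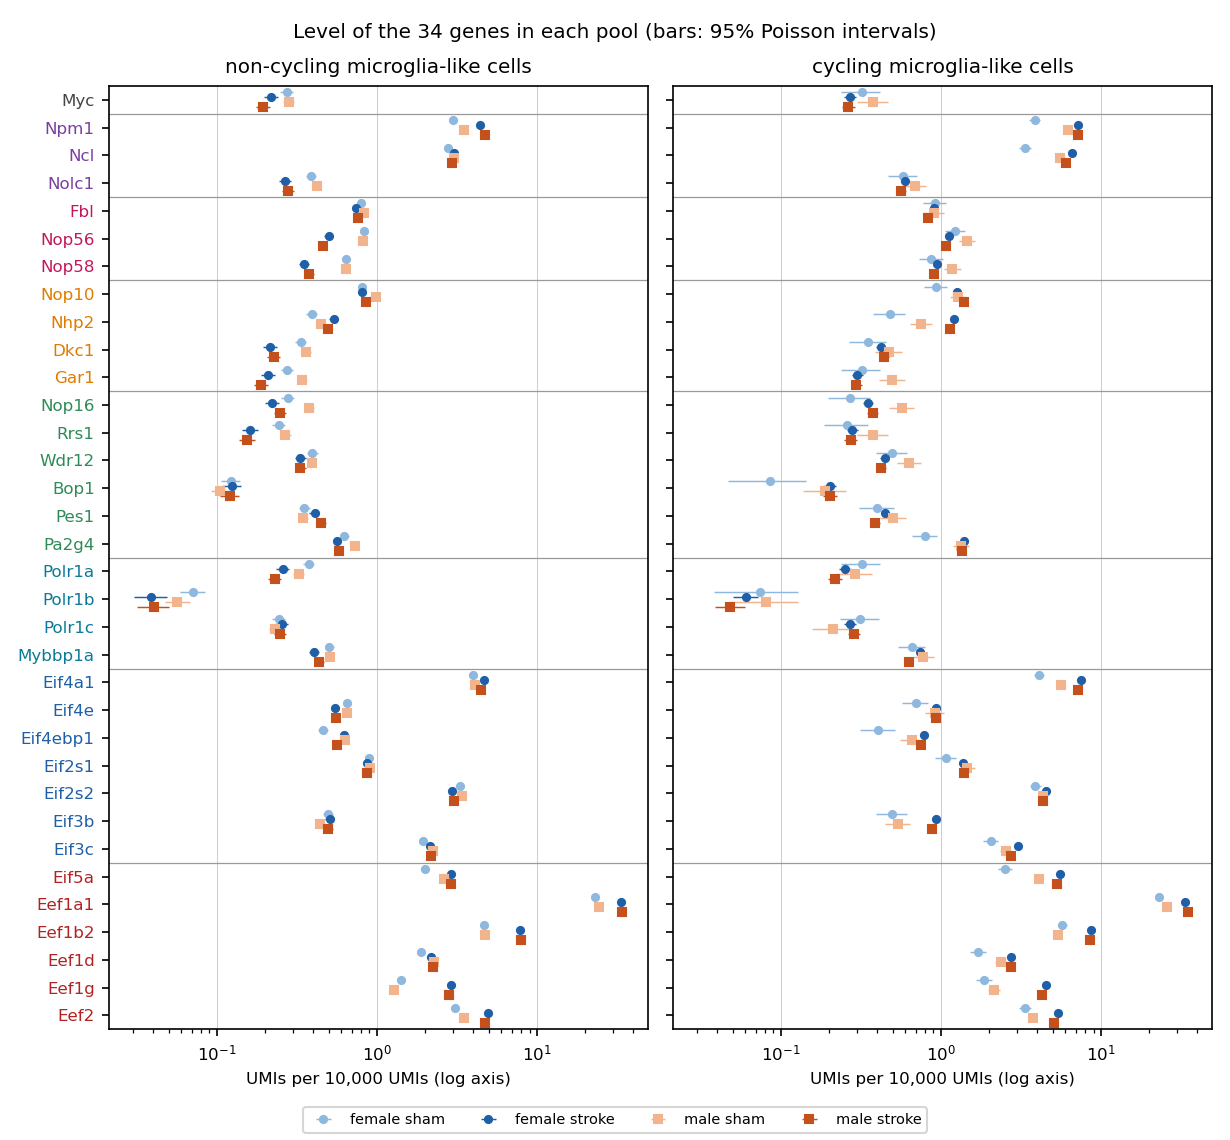
Level of each gene in UMIs per 10,000 (log axis) in non-cycling (left) and cycling (right) microglia-like cells, 1 point per pool with its 95% Poisson interval, genes coloured and grouped by role. On the left the stroke pools lie to the right of the sham pools for Eef1g, at 2.93 and 2.83 against 1.42 and 1.28, and to the left for Nop58, at 0.351 and 0.377 against 0.643 and 0.642.

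All 6 elongation genes rose, and all 6 kept a positive log2 change with library totals, 5 of them with a call. Eef1g, the gamma subunit of the complex that recharges elongation factor 1 alpha with GTP, stood at 1.42, 2.93, 1.28 and 2.83 per 10,000. Both stroke pools were above both sham pools, and Eef1g rose by 1.41 ± 0.14 (log2, SE), with an adjusted p of 1.2e-21 by edgeR. Eef1b2, another subunit of that complex, stood at 4.69, 7.81, 4.74 and 7.94 and rose by 1.05 ± 0.15. Eef2, which moves the ribosome forward by a codon, stood at 3.07, 4.93, 3.503 and 4.76 and rose by 0.87 ± 0.15. Eef1a1, which delivers aminoacyl-tRNA, stood at 23.0, 33.8, 24.5 and 34.1, with no overlap between stroke and sham, and rose by 0.83 ± 0.17. Eif5a, which relieves stalled ribosomes and is grouped here with elongation despite its name, rose by 0.66 ± 0.14 from 2.00 and 2.63 to 2.92 and 2.92. Eef1d, the guanine exchange subunit delta, changed least, at 1.89, 2.18, 2.27 and 2.25 per 10,000. Its levels overlapped between stroke and sham, and its call (0.41 ± 0.14, adjusted p = 0.011 by edgeR) was 1 of those lost with library totals.

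Of the 7 initiation genes 4 rose, and none of the 7 was called with library totals, where the values ran from -0.24 to 0.18. Eif4a1, the RNA helicase that unwinds leader sequences, stood at 3.98, 4.70, 4.12 and 4.50 and had a log2 change of 0.49 ± 0.15. Eif4ebp1, whose product holds the cap-binding protein inactive until it is phosphorylated, stood at 0.463, 0.622, 0.634 and 0.563, so that its levels were higher after stroke in females and lower in males on this unscaled measure. Its log2 change was 0.43 ± 0.14, with 0.76 in females and 0.10 in males. Eif3b and Eif3c, scaffold subunits of the factor that holds the small subunit ready, changed by 0.41 ± 0.14 and 0.36 ± 0.14. Eif4e, the cap-binding protein itself (0.07 ± 0.13), and Eif2s1 and Eif2s2, subunits of the factor that brings the initiator tRNA (0.26 ± 0.13 and 0.15 ± 0.14), did not pass the test.

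Nucleolar genes split by role and by gene. Npm1, the histone and ribosomal protein chaperone nucleophosmin, stood at 3.02, 4.44, 3.498 and 4.74 per 10,000, with both stroke pools on top, and rose by 0.81 ± 0.15. Ncl, nucleolin, stood at 2.80, 3.04, 3.04 and 2.95, levels that overlap, and its call (0.35 ± 0.14, adjusted p = 0.039 by edgeR) was lost in 9 of 15 alternative fits. Nolc1, a chaperone that shuttles between nucleolus and cytoplasm, was lower in both stroke pools at 0.266 and 0.278 than in the sham pools at 0.389 and 0.421, but did not pass (-0.26 ± 0.14).

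Both scaffold genes of the box C/D snoRNPs, the particles that guide ribose methylation, fell. Nop56 stood at 0.837, 0.49995, 0.823 and 0.458 and fell by 0.48 ± 0.13 on the log2 scale. Nop58 stood at 0.643, 0.351, 0.642 and 0.377 and fell by 0.51 ± 0.14. Neither gene's levels overlapped between stroke and sham, and both calls held in 13 of 15 alternative fits. Fbl, the methyltransferase of the same particle, stood at 0.802, 0.746, 0.832 and 0.768, which is 0.20 ± 0.13 with TMM scaling and -0.11 with library totals, with no call in either fit.

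Of the box H/ACA genes, whose particles guide pseudouridylation, Nhp2 rose by 0.61 ± 0.14 from 0.391 and 0.448 to 0.538 and 0.495, and Dkc1, the pseudouridine synthase dyskerin, fell by 0.35 ± 0.14 from 0.335 and 0.360 to 0.215 and 0.227. The call of Dkc1 (adjusted p = 0.043 by edgeR) was lost in 9 of 15 alternative fits. Nop10 (0.20 ± 0.13) and Gar1 (-0.32 ± 0.15) did not pass. Gar1 was lower in both stroke pools at 0.209 and 0.189 than in the sham pools at 0.274 and 0.342.

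Among large subunit assembly genes, Pes1 and Bop1, partners in the PeBoW complex of ribosome assembly, had log2 changes of 0.60 ± 0.14 and 0.42 ± 0.17, both past the test, while Wdr12, the third partner, stood at 0.07 ± 0.14. Pes1 was at 0.352, 0.408, 0.347 and 0.448, higher in both stroke pools. Bop1 was at 0.122, 0.124, 0.105 and 0.120, which overlap, and its call held in only 4 of 15 alternative fits. Rrs1, a regulator of ribosome assembly, fell by 0.39 ± 0.15 from 0.243 and 0.268 to 0.161 and 0.155, a call that held in 9 of 15 alternative fits. Nop16 (-0.16 ± 0.14) and Pa2g4, a growth regulator that binds ribosomes (0.07 ± 0.13), did not pass.

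Of the polymerase I group, Polr1c, a subunit shared with RNA polymerase III, had a log2 change of 0.39 ± 0.15 past the test at near equal unscaled levels of 0.245, 0.254, 0.231 and 0.249. The large catalytic subunits Polr1a (-0.21 ± 0.14) and Polr1b (-0.37 ± 0.24) and the regulator Mybbp1a (0.03 ± 0.14) did not pass. Polr1b rests on 125, 72, 123 and 77 UMIs, the fewest of the 34 genes.

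Myc itself was scarce, with 485, 408, 608 and 371 UMIs, or 0.274, 0.220, 0.281 and 0.195 per 10,000. Both stroke pools were below both sham pools on this unscaled measure. The log2 change was -0.11 ± 0.15 (adjusted p = 0.58 by edgeR) with TMM scaling and -0.42, with a call, with library totals. So Myc did not rise with the 16 genes above in either fit.

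Of the 16 rises, 5 held in all 15 alternative fits, namely Eef1g, Eef1b2, Eef1a1, Eef2 and Npm1, and none of the 4 falls did. Macrophage marker UMIs were more frequent in the stroke cells, with the 12 markers summing to 0.359, 4.05, 0.353 and 3.85 per 10,000 and to 0.304, 1.14, 0.282 and 1.005 without Fn1 and Vim, and none of the 12 was at 0 in any pool. Without the cells that held at least 3 such UMIs before thinning, a limit that deeper cells reach more easily, 6 of the 34 genes rose and 6 fell. Over all genes 15.3% rose and 12.5% fell in that fit. Both counts are near those shares and no result about the set. The median mitochondrial share also moved with stroke, at 2.02%, 4.84%, 1.18% and 4.48%, and with a limit of 5% on that share 8 genes rose and 3 fell. Over all genes 13.5% then rose and 9.82% fell. Median depth was 6402, 7824.5, 5385 and 7974 UMIs per cell, and with every cell thinned to 3000 UMIs 8 genes rose and 2 fell. The shares over all genes were 14.4% and 9.90% with thinned cells. The UMI share of ribosomal protein genes, none of which is among the 34, was 8.71%, 14.0%, 9.002% and 13.9%, and that of the nuclear RNA Malat1 was 3.89%, 1.48%, 4.47% and 1.60%. The part of these differences in the changes above was not tested beyond the counts given.

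Summed over the 34 genes, non-cycling microglia-like cells had 61.5, 81.0, 66.3 and 81.4 UMIs per 10,000. The 6 elongation genes made up 36.0, 54.6, 38.9 and 54.8 of this, so most of the rise in the sum lay with them. Initiation genes summed to 11.7, 12.4, 12.4 and 12.2 and box C/D genes to 2.28, 1.60, 2.30 and 1.60. Per thinned cell the median was 18, 22, 19 and 22 member UMIs of 3000. The 10th and 90th percentiles were 11 and 25 in the female sham pool and 14 and 32 in the female stroke pool, so the cells of both overlap widely.

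The second question was how the genes differ between dividing and other microglia after stroke. In the stroke pools, cycling microglia-like cells had more of nearly the whole set, and Nop56 and Nop58, which had fallen with stroke in non-cycling cells, were among the genes with the largest differences. With pool as a block, 31 of 34 genes were higher in cycling cells and 0 lower by edgeR (31 and 0 at an unadjusted p under 0.05, and 27 and 0 adjusted by DESeq2). Of all 12865 genes tested, 32.7% were higher and 30.8% lower. The median difference was 0.67 over the 34 genes and -0.01 over all genes. This test and those below also have 1 residual degree of freedom, so their p-values and SE do not measure the spread between mice. Both sums of a pool come from the same library, the cells were split by their cell cycle UMIs, and cycling cells were deeper, with a median of 13202 against 7824.5 UMIs in the female and 13823 against 7974 in the male stroke pool. With every cell thinned to 3000 UMIs 27 genes were higher and 0 lower, against 26.2% and 22.6% of all genes.

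**Figure D2:**
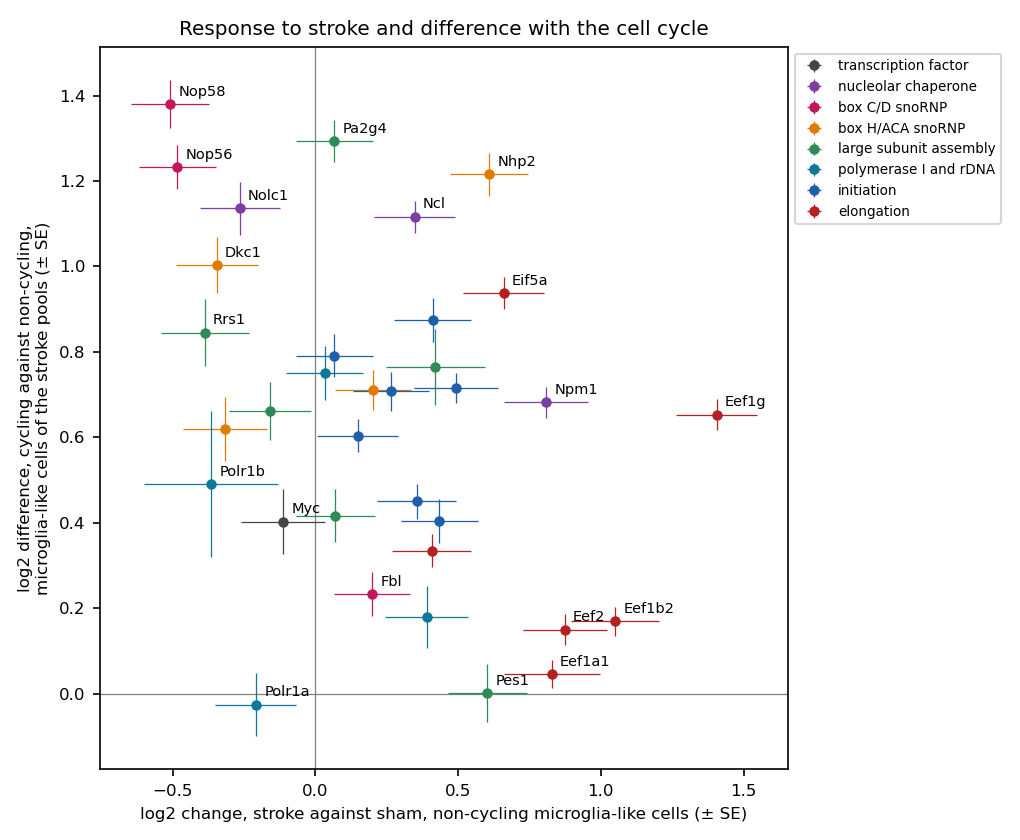
Each point is 1 gene, coloured by role: the x axis is the log2 change of stroke against sham in non-cycling microglia-like cells and the y axis the log2 difference of cycling against non-cycling cells in the stroke pools, bars being SE. Both axes use the non-cycling cells of the stroke pools, so they are not independent. Nop56 and Nop58 sit at the upper left (-0.48 and -0.51 against 1.23 and 1.38), and Eef1a1, Eef2 and Eef1b2 at the lower right (0.83, 0.87 and 1.05 against 0.04, 0.15 and 0.17).

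The largest differences were those of Nop58, Pa2g4, Nop56 and Nhp2, which belong to 3 roles. Nop58 stood at 0.351 in non-cycling and 0.948 in cycling cells of the female stroke pool and at 0.377 and 0.905 in the male pool, a log2 difference of 1.38 ± 0.06. Nop56 went from 0.49995 to 1.13 and from 0.458 to 1.07 (1.23 ± 0.05), Ncl from 3.04 to 6.65 and from 2.95 to 6.05 (1.12 ± 0.04), and Nolc1 from 0.266 to 0.601 and from 0.278 to 0.568 (1.14 ± 0.06). In each of these the 2 pools gave nearly the same difference. Npm1, the third chaperone, differed by 0.68 ± 0.04. Fbl, the third box C/D gene, differed by only 0.23 ± 0.05 and by -0.02, with no call, without cells holding macrophage marker UMIs. That removal left 570 of 1267 cycling cells in the female and 460 of 1057 in the male stroke pool. It left 1489 of 1954 and 1571 of 1950 non-cycling cells. The markers were counted before thinning, so deeper cells reach the limit more easily.

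Pa2g4 had a difference of 1.29 ± 0.05, Nhp2 of 1.22 ± 0.05, Dkc1 of 1.003 ± 0.07, Eif5a of 0.94 ± 0.04 and Rrs1 of 0.84 ± 0.08. Initiation genes were all higher in cycling cells, from 0.40 ± 0.05 for Eif4ebp1 to 0.87 ± 0.05 for Eif3b. Eif4a1, for example, went from 4.70 to 7.53 in the female and from 4.50 to 7.24 in the male stroke pool. The other elongation genes differed little apart from Eef1g at 0.65 ± 0.04: Eef1d stood at 0.33 ± 0.04, Eef1b2 at 0.17 ± 0.03, Eef2 at 0.15 ± 0.04 and Eef1a1 at 0.04 ± 0.03, the last without a call. Polr1a (-0.03 ± 0.07) and Pes1 (0.00 ± 0.07) did not pass either, and Pes1 differed by 0.16 in females and -0.16 in males. Myc was higher by 0.40 ± 0.08 (adjusted p = 6.3e-05 by edgeR), a call kept in 2 of 5 alternative fits, among which its value ran from 0.02 to 0.48.

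The 4 genes that fell with stroke in non-cycling cells (Nop56, Nop58, Dkc1 and Rrs1) were all higher in cycling cells, as were 14 of the 16 that rose and 13 of the other 14. The non-cycling stroke cells enter both comparisons, so the signs are tied in part by construction. As levels, Nop58 was 0.948 and 0.905 in cycling cells of the stroke pools, 0.874 and 1.18 in cycling cells of the sham pools, and 0.643 and 0.642 in non-cycling cells of the sham pools. Its lowest levels were those of non-cycling stroke cells.

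Within the stroke pools the level of the set rose with the number of cell cycle UMIs up to 6 to 15, and not beyond. With 0, 1, 2, 3 to 5, 6 to 15 and 16 or more such UMIs per thinned cell, the 34 genes summed to 73.6, 75.7, 79.1, 90.03, 101.6 and 101.0 per 10,000 in the female and to 74.3, 76.0, 78.5, 88.4, 101.0 and 97.3 in the male stroke pool. Cells at 2 UMIs, called non-cycling, were already above cells at 0 by their Poisson intervals. In the male sham pool the sum was 64.5 at 0, 74.1 at 3 to 5 and 109 (95% interval 103 to 115, 41 cells) at 6 to 15 UMIs, but 85.6 (80.8 to 90.5, 48 cells) at 16 or more, and in the female sham pool it was 59.8, 61.0 and 74.0 (68.5 to 79.8, 30 cells). Depth rose along with these bins, from a median of 7596 to 17622 UMIs in the female stroke pool before thinning.

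**Figure D3:**
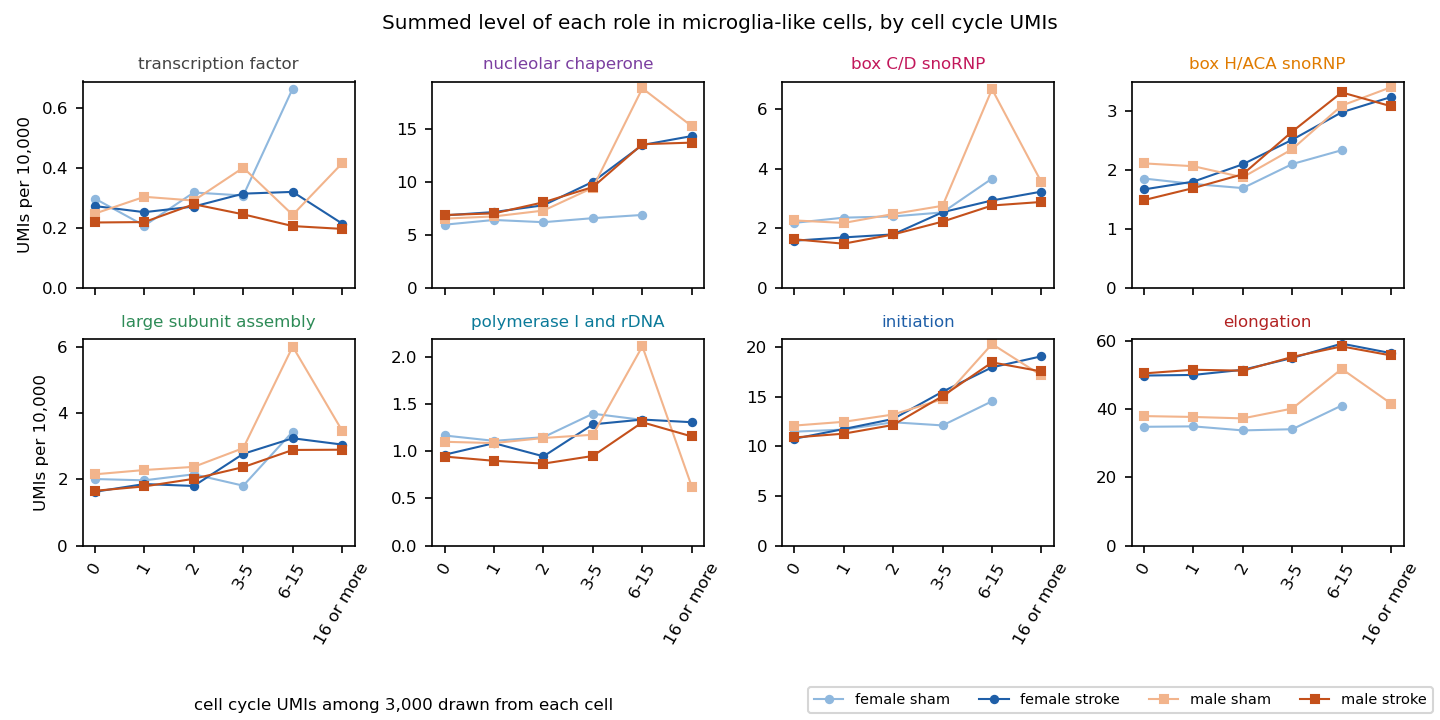
Summed level of each role (UMIs per 10,000, y axes from 0) in microglia-like cells binned by cell cycle UMIs after thinning to 3000 UMIs, 1 line per pool; bins under 20 cells are left out. Nucleolar chaperones in the stroke pools climb from 6.85 and 6.88 at 0 to 14.3 and 13.7 at 16 or more, while elongation genes stay between 49.9 and 59.3; the sham points at 6 and above rest on 30 to 48 cells.

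Among cells with at least 6 cell cycle UMIs, those with more S phase than G2 and M phase UMIs had the higher sums, at 115 (95% interval 114 to 116) against 104 (103 to 104) in the female and 111 (110 to 112) against 103 (102 to 103) in the male stroke pool. Nop56 was at 1.63 against 1.05 and 1.57 against 0.930, and Nolc1 at 0.909 against 0.521 and 0.825 against 0.477. Nop10, Nhp2 and Eif4a1 differed less, Eif4a1 being at 7.99 against 7.61 and 7.62 against 7.48. Eif4e, Eif4ebp1, Eif3c, Wdr12 and Polr1c were lower in the cells with more S phase UMIs in both pools. Eif4e was at 0.904 against 1.01 and 0.871 against 1.05. These are values of 272 and 590 female and 245 and 490 male cells, given without a test.

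The third question was how cycling cells compare between stroke and sham. Of the 34 genes 19 rose and 0 fell by edgeR (21 and 0 at an unadjusted p under 0.05, 15 and 0 adjusted by DESeq2), against 19.8% of the 12228 genes tested that rose and 16.5% that fell. All 6 elongation and all 7 initiation genes were among the 19. As in the first test, the p-values and SE do not measure the spread between mice, and each gene's variance came from a trend over all genes. With library totals 12 rose, among them the same 6 elongation genes and 3 of the initiation genes. Over all genes 10.9% then rose and 33.6% fell. Nhp2 stood at 0.480, 1.21, 0.755 and 1.14 and rose by 1.26 ± 0.17, and Eef1g stood at 1.86, 4.54, 2.15 and 4.31 and rose by 1.47 ± 0.18. None of the box C/D genes passed. Their median log2 change was 0.19 here, -0.15 with library totals and -0.32 with cycling cells limited to at least 6 cell cycle UMIs. The sham sums rest on 207 and 313 cells, of which 45 and 89 held at least 6 cell cycle UMIs, against 886 of 1267 and 745 of 1057 in the stroke pools, so the cycling cells of sham and stroke differ in how far they exceed the limit. With the limit at 6, 13 genes rose and 0 fell, and without cells holding macrophage marker UMIs 6 rose and 0 fell. That removal left 196, 570, 305 and 460 cells. Over all genes 9.87% rose and 5.88% fell with the limit at 6, and 8.57% and 4.99% with that removal.

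For several genes the sham level in cycling cells was higher in males than in females. Npm1 stood at 3.85, 7.17, 6.24 and 7.22, Ncl at 3.37, 6.65, 5.53 and 6.05, and Bop1 at 0.0861, 0.202, 0.190 and 0.204. For Npm1 the log2 change was 1.24 in females and 0.53 in males, and the sexes had opposite signs for 9 of the 34 genes. With 1 pool for each sex and treatment this difference has no test.

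Taken over all microglia-like cells, without the split by cell cycle, 23 of 34 genes rose and 0 fell by edgeR (24 and 0 at an unadjusted p under 0.05, 21 and 0 adjusted by DESeq2), where 24.9% of all 14194 genes rose and 24.5% fell. The median was 0.55. With library totals 12 rose and 1 fell, where 15.6% of all genes rose and 43.3% fell. Nop56, Nop58, Dkc1 and Rrs1, which fell in the non-cycling cells, did not pass here. This sum mixes both kinds of cell, and cycling cells were more frequent in the stroke pools.

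Macrophage-like cells could be described only after stroke, since the female sham pool held 5 of them and stroke was therefore not tested against sham. Cluster names rest on markers, and the leading genes of this cluster were Arg1, Thbs1, Gpnmb, Apoc2 and Chil3. Summed over the 34 genes, non-cycling macrophage-like cells had 85.7 and 89.5 UMIs per 10,000 in the female and male stroke pools, against 81.0 and 81.4 in non-cycling microglia-like cells. Of the 34 genes, 16 were higher in the macrophage-like cells in both pools by separate 95% Poisson intervals, 7 were lower in both, 5 overlapped in both, and 6 differed between the pools. There is no test, because the classes were made from the same cells. The share of all genes with separate intervals was not counted. These counts, and that of the initiation genes below, therefore cannot be called particular to the set. Poisson intervals cover counting error only, and macrophage-like cells were deeper, with medians of 13550 and 14070 UMIs.

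All 7 initiation genes were higher in macrophage-like cells, summing to 19.1 and 19.998 against 12.4 and 12.2. Eif4ebp1 was at 1.32 and 1.17 against 0.622 and 0.563, Eif4a1 at 8.82 and 9.21 against 4.70 and 4.50, and Eif4e at 1.01 and 1.01 against 0.549 and 0.558. Nhp2 had the largest excess outside that role, at 0.994 and 1.04 against 0.538 and 0.495. Elongation genes were mixed. Eif5a was higher, at 3.89 and 3.82 against 2.92 and 2.92, while Eef1b2 was lower, at 4.98 and 4.89 against 7.81 and 7.94 and Eef2 at 3.92 and 3.90 against 4.93 and 4.76. Myc had the lowest ratio of the 34 in both pools, 0.326 and 0.388, from 0.0715 and 0.0758 per 10,000 on 96 and 54 UMIs against 0.220 and 0.195 in microglia-like cells. Polr1a (0.146 and 0.116 against 0.258 and 0.230) and Wdr12 were also lower.

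**Figure D4:**
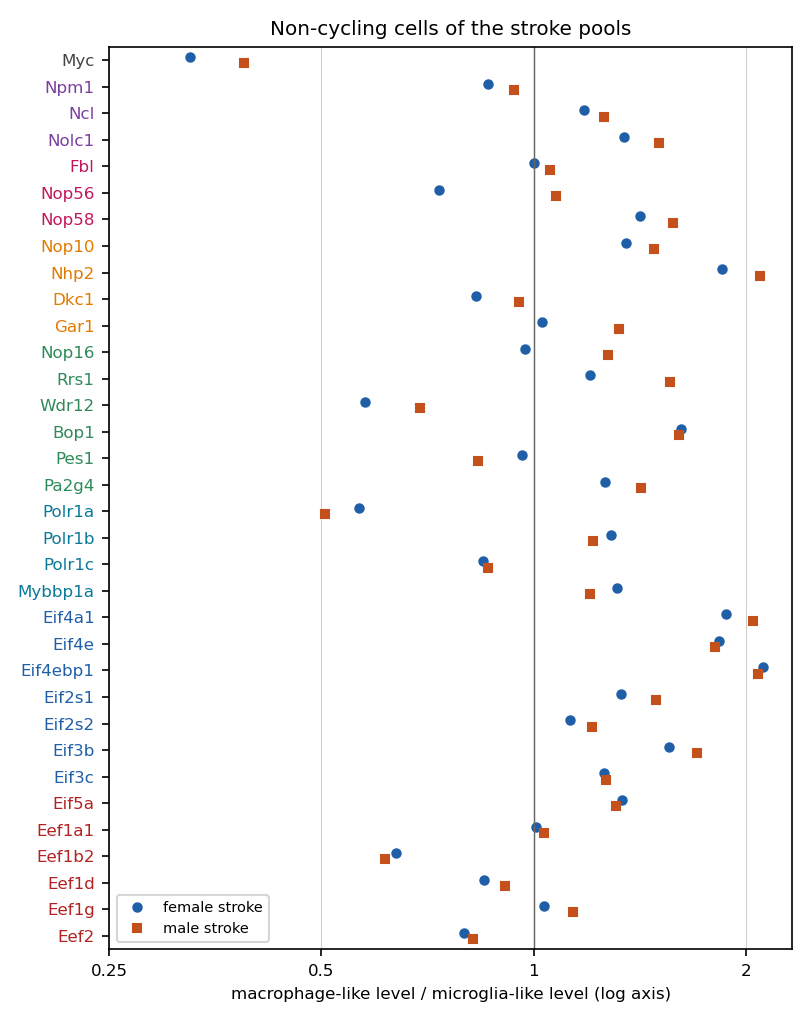
Ratio of the level in non-cycling macrophage-like to that in non-cycling microglia-like cells (log axis, 1 marks equal levels) for each gene in the female and male stroke pools. All 7 initiation genes lie to the right of 1, and Myc lies farthest to the left, at 0.326 and 0.388.

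None of the 34 genes passed as higher in cycling macrophage-like cells. These were 121 (11.6%) of the female and 71 (12.9%) of the male stroke cells of that class with at least 3000 UMIs. With pool as a block, 0 of 34 genes were higher and 1 lower by edgeR (0 and 1 at an unadjusted p under 0.05, and 0 and 0 adjusted by DESeq2), where 4.42% of the 10317 genes tested were higher and 2.32% lower. The 1 was Eif4ebp1, at 1.32 against 1.16 in the female and 1.17 against 0.883 in the male pool, lower by -0.33 ± 0.11 (log2, adjusted p = 0.031 by edgeR), a call lost in each of the alternative fits run (library totals, DESeq2 and thinned cells). The median difference was 0.05. Ncl went from 3.59 to 4.40 in the female and from 3.71 to 3.66 in the male stroke pool, Nop58 from 0.498 to 0.661 and from 0.595 to 0.506, and Nhp2 from 0.994 to 1.16 and from 1.04 to 1.08. The pools moved in opposite directions for 21 of the 34 genes, Ncl and Nop58 among them. Whether the cycling difference itself differs between the classes was not tested. Only 27 and 9 of the cycling macrophage-like cells held at least 6 cell cycle UMIs, so that class was mostly cells near the limit. The part of this in the lack of calls was not tested. With 4.42% of all genes higher, 0 of 34 is near the share over all genes and no result about the set.

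Microglia-like cells fell into 9 clusters, made without the 34 genes, cell cycle genes and histone genes. Among their non-cycling cells in the stroke pools the sum of the set was lowest in clusters 1 (61.4 and 60.4) and 4 (62.9 and 63.0), which are led by homeostatic genes such as P2ry12. It was highest in cluster 9 (98.7 and 99.1), led by Ccl4, Ch25h and Lpl, and in between in cluster 7 (82.0 and 84.6), with Ifit2 and Ifit3 among its leading genes. Cluster 8, led by Top2a and Mki67, had too few non-cycling cells to be described. P2ry12 went with the order at its ends, at 30.6 and 33.5 per 10,000 in cluster 1 and 3.76 and 4.93 in cluster 9. The cells of a cluster are not replicates, and these are values without a test.

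**Figure D5:**
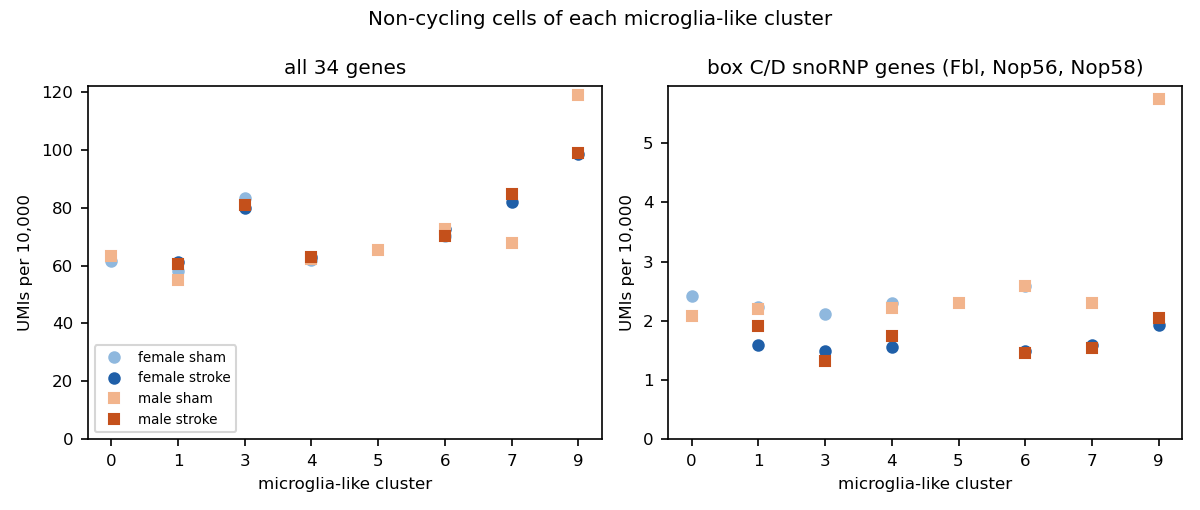
UMIs per 10,000 of all 34 genes (left) and of the 3 box C/D genes (right) in the non-cycling cells of each microglia-like cluster, 1 point per pool with at least 50 such cells, axes from 0. On the right the stroke points lie below the sham points in clusters 1, 3, 4, 6, 7 and 9, for example 1.48 and 1.45 against 2.59 and 2.59 in cluster 6.

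Box C/D genes were lower in the stroke pools within each cluster that both kinds of pool filled with at least 50 non-cycling cells, on the unscaled measure. In cluster 4 their sum was 2.30 and 2.22 in the sham and 1.56 and 1.74 in the stroke pools, and in cluster 1 it was 2.23 and 2.20 against 1.59 and 1.91. Elongation genes were higher in the stroke pools in the same clusters, at 36.8 and 36.4 against 40.9 and 41.3 in cluster 4. In cluster 6 they were at 44.3 and 47.1 against 50.1 and 48.3. The sum of all 34 genes was not higher after stroke in every cluster. It was 61.9 and 62.3 against 62.9 and 63.0 in cluster 4, and 70.2 and 72.5 against 72.7 and 70.2 in cluster 6. In cluster 1 it was 58.05 and 55.2 against 61.4 and 60.4. With 1 sham pool each, it was 83.3 against 80.0 and 80.9 in cluster 3 and 67.7 against 82.0 and 84.6 in cluster 7. In cluster 9 it was 119 against 98.7 and 99.1. Eef1g in cluster 4 was at 1.46 and 1.16 against 1.37 and 1.66.

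The wider pathways were read from 9 lists of genes outside the 34, by the non-cycling and then the cycling comparison. These lists were also chosen with earlier results of these data known, so their counts beside all genes are a description. Of 36 tested initiation genes, 19 rose with stroke and 3 fell, with a median log2 change of 0.38, and Eif4b (0.88 ± 0.13), Eif3k (0.87 ± 0.14) and Eif3i (0.84 ± 0.13) rose most. Eif3j1, a subunit that joins the same complex loosely, fell by 0.51 ± 0.13, Eif4e3, an atypical cap-binding protein, by 0.42 ± 0.15, and Eif2b3 by 0.41 ± 0.15. Of 40 large subunit assembly genes 0 rose and 8 fell (1 and 12 at an unadjusted p under 0.05 by edgeR), Ppan (-0.54 ± 0.15), Wdr74 (-0.52 ± 0.15) and Rrp1b (-0.47 ± 0.14) most. Of 39 small subunit processing genes 1 rose, the GTPase Bms1 (0.41 ± 0.14), and 6 fell, Pwp2 (-0.69 ± 0.23), Dimt1 (-0.56 ± 0.16) and Riok2 (-0.46 ± 0.15) among them. Of 10 snoRNP assembly genes 0 rose and Znhit3 fell, by 0.74 ± 0.17 (0 and 2 at an unadjusted p under 0.05 by edgeR). Of 14 polymerase I genes Polr1d rose (0.64 ± 0.14), and Taf1a (-0.82 ± 0.23), Cd3eap (-0.49 ± 0.14) and Twistnb (-0.39 ± 0.13) fell. These shares of rises lie below the 20.1% over all genes for the 4 nucleolar lists and above it for initiation. The falls of the 4 nucleolar lists were near or below the 18.2% over all genes, so they are no result about these lists, and no list was tested as a set.

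Elongation outside the 6 genes did not move as they did. Of 14 tested genes of elongation and termination 3 rose, the termination factor Etf1 (0.52 ± 0.13), Dohh (0.40 ± 0.14), whose enzyme completes the hypusine of Eif5a, and Eef2kmt (0.34 ± 0.14), and 3 fell, among them the selenocysteine factor Eefsec (-0.74 ± 0.16) and Pelo (-0.45 ± 0.16). The third, Eef1a2, an isoform of neurons and muscle, was close to 0 in every pool and its fold is not given. Of 25 genes that control translation through mTOR and the eIF2 kinases 3 rose and 4 fell. The counts of both lists are near or below the 20.1% of all genes that rose and the 18.2% that fell. They are therefore no result about these lists. Eif2ak2, the interferon-induced kinase PKR, stood at 0.452, 0.875, 0.507 and 0.979 and rose by 1.26 ± 0.14. Ddit4, an mTOR inhibitor, stood at 0.278, 0.101, 0.303 and 0.0889 and fell by 1.31 ± 0.16. Lamtor1 (0.57 ± 0.14) and Tsc2 (0.48 ± 0.17) rose, and Rictor (-0.45 ± 0.14) and Sesn1 (-0.37 ± 0.13) fell.

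Of 26 Myc targets outside the nucleolus 9 rose and 1 fell with stroke in non-cycling cells. Nme2 and Nme1, nucleoside diphosphate kinases, rose by 1.38 ± 0.15 and 1.35 ± 0.14, and Hspe1, a mitochondrial chaperonin, by 1.06 ± 0.14, while Ppat, the first enzyme of purine synthesis, fell by 0.70 ± 0.18. Of 11 tested Myc partners and antagonists 0 rose and 2 fell by edgeR, with the same counts at an unadjusted p under 0.05: Mycl by 0.71 ± 0.19 and Mxd1 by 0.51 ± 0.17. Over all genes 20.1% rose and 18.2% fell, so the falls among the partners are no result about that list.

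In cycling against non-cycling cells of the stroke pools, 26 of 26 Myc targets, 34 of 40 large subunit, 32 of 39 small subunit and 9 of 10 snoRNP assembly genes were higher, and 28 of 36 initiation genes, with 4 lower, where 32.7% of all genes were higher and 30.8% lower. Ppat, which had fallen with stroke, was higher by 1.27, Pwp2 by 0.87 and Znhit3 by 0.99. Of the mTOR and eIF2 kinase list 7 were higher and 11 lower, Ddit4 by -1.16, and of 12 Myc partners 2 were higher and 5 lower, Mycl by -2.64. In macrophage-like cells the cycling comparison called 4 of 26 Myc targets and 1 of 11 Myc partners higher, and no gene of the other 7 lists in either direction by edgeR (3 higher and 8 lower at an unadjusted p under 0.05), where 4.42% of all genes were higher and 2.32% lower.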

How the data were processed

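The 4 single-cell 3′ libraries (10x Genomics) of sorted ZsGreen+ cells were analysed. The authors deposited UMI counts per gene and cell. Per the file headers the matrices came from cellranger 6.1.2, whereas version 7.1.0 of Cell Ranger, with build mm10, stands in the submitters' processing notes. Strand use and the treatment of multiply mapped reads are not given. Cells with at least 500 genes, 1000 UMIs and at most 10% mitochondrial UMIs were kept, and clustered in scanpy 1.11.5 (2000 variable genes, 30 components, 15 neighbours, Leiden resolution 0.8) without the 34 genes, cell cycle genes and histone genes. Classes were named from marker lists. Doublets were not called and free RNA was not removed.

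Counts were summed per pool and class and tested with edgeR 4.0.16 (TMM, filterByExpr, quasi-likelihood, Benjamini-Hochberg over all genes) in R 4.3.3; DESeq2 1.42.0 was an alternative. The fits were tested on simulated data in which few genes changed, equally many up and down. That simulation cannot check how the calls depend on the scaling. Levels have 95% exact Poisson intervals. All 34 members were named, and of each pathway list up to 3 genes in each direction with the largest called changes of the same sign in both sexes (non-cycling test). The members and lists were chosen with earlier results of these data known. Alternatives were library totals, DESeq2 and its size factors, no count filter, no sex term, each pool left out, a higher UMI minimum, a lower mitochondrial limit, thinned cells, other cell cycle limits, clustering with all genes and removal of cells with macrophage marker UMIs.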

Additional observations from a re-analysis of the deposited data

Results flagged for a closer look

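For 3 of the 34 genes the log2 change of stroke against sham in non-cycling microglia-like cells had opposite signs in the pools of each sex. Myc changed by 0.024 in females and -0.24 in males, Nop16 by 0.021 and -0.32, and Pa2g4 by 0.19 and -0.056. None of the 3 passed the test over both sexes. Each value rests on 1 pool against 1 pool, and the difference between the sexes was not tested.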

How the results depend on the processing

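No paired analysis was possible because each combination of sex and surgery is 1 pool, so no replicate numbers could pair pools. The sex term and the block on pool, within which cycling and other cells were compared, are parts of the tests themselves. In non-cycling microglia-like cells (16 rises, 4 falls), rises numbered 6 with library totals, 10 with DESeq2, 8 with a mitochondrial limit of 5%, 8 with thinned cells, 10 with non-cycling cells at 0 cell cycle UMIs and 6 without cells holding macrophage marker UMIs, and 7 to 20 with 1 pool left out. Falls numbered 10 with library totals, 2 with DESeq2 and 2 with thinned cells, and 0 to 7 with 1 pool left out. Over all microglia-like cells (23 and 0), rises numbered 12 with library totals and 15 with thinned cells, and 14 to 30 with 1 pool left out; falls numbered 1 with library totals and 0 to 1 with 1 pool left out. In cycling macrophage-like cells the 1 lower gene became 0 with library totals, DESeq2 and thinned cells. In cycling cells, stroke against sham (19 and 0) gave 12 rises with library totals and 6 without cells holding macrophage marker UMIs. The shares over all genes moved as well. In non-cycling microglia-like cells 12.7% of all genes rose and 5.80% fell with DESeq2. At 0 cell cycle UMIs these shares were 17.2% and 14.3%.

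Reversed log2 changes in non-cycling cells concerned no gene called there. With library totals they were -0.24 (Wdr12), -0.11 (Nop10), -0.16 (Eif2s2), -0.24 (Eif4e), -0.11 (Fbl), -0.24 (Pa2g4), -0.28 (Mybbp1a) and -0.045 (Eif2s1). With non-cycling cells at 0 cell cycle UMIs they were -0.11 (Wdr12), -0.027 (Eif4e), -0.069 (Pa2g4) and -0.11 (Mybbp1a). Without cells holding macrophage marker UMIs they were -0.0079 (Wdr12), -0.0049 (Nop10), -0.0010 (Eif2s2), -0.070 (Eif4e), -0.15 (Pa2g4) and -0.15 (Mybbp1a). With the 5% limit they were -0.0018 (Nop10), -0.0044 (Eif4e) and -0.072 (Mybbp1a), and with thinned cells -0.14 (Eif4e), -0.16 (Pa2g4) and 0.10 (Myc). Without the female sham pool they were -0.077 (Pa2g4) and -0.013 (Mybbp1a), without the male stroke pool -0.016 (Mybbp1a) and without the male sham pool 0.14 (Nop16). Cycling against non-cycling cells reversed for Pes1 with library totals (-0.033), and for Fbl (-0.021), Eef1a1 (-0.037) and Pes1 (-0.089) without cells holding macrophage marker UMIs, an alternative chosen after seeing the data. The causes were not tested. A fit with a pool left out has no sex term, and the lone pool is assumed to vary like the others. Stroke against sham in macrophage-like cells (5 cells in the smallest sum) and their cycling comparison at 6 UMIs (9 cells) were not run.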

Other observations

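In cluster 9 of the microglia-like cells, led by Ccl4, Ch25h and Lpl, the 89 non-cycling cells of the male sham pool had 119 UMIs of the 34 genes per 10,000 (95% Poisson interval 116 to 122), against 98.7 and 99.1 in the stroke pools. Ncl stood at 10.0 in these cells against 4.22 and 4.45, Nop58 at 2.11 against 0.517 and 0.606, and Myc at 0.5997 against 0.260 and 0.293. The chemokine gene Ccl4 stood at 58.0 against 11.1 and 9.33, and Spp1, which encodes osteopontin, at 6.28 against 115 and 89.3. The summed immediate early genes, which can rise during tissue dissociation, were at 21.0 against 7.04 and 5.57. These are values of 1 sham pool, their part in the level of the 34 genes was not tested, and the female sham pool had under 50 such cells.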
